A study of Homo sapiens with 9 samples.

Results

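The regions described here were 10240 RNA polymerase II (RNAPII) peaks that appeared upon 1 hairpin against RECQL5, shRNA7, and in none of the other 4 peak lists of the study. They were chosen by peak overlap alone: an shRNA7 peak was a member when no peak of the control shRNA, shRNA5, no doxycycline or doxycycline list shared even 1 bp with it. Members made up 31.9% of the 32124 shRNA7 peaks (95% interval 31.4 to 32.4) and belonged to a set of 142069 peaks over the 5 lists. That share is what the rule itself fixed, and it stands here as a description of the choice. By the same rule 9 of 5287 control peaks (0.170%), 1732 of 23698 shRNA5 peaks (7.31%), 13439 of 47060 no doxycycline peaks (28.6%) and 6019 of 33900 doxycycline peaks (17.8%) were seen in a single list. Membership rests on the deposited lists as they stand, and the 3 hairpin lists are shorter than the approximate peak numbers in the study's methods.

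The polymerase was mapped by ChIP-seq, the sequencing of DNA recovered with an RNAPII antibody from crosslinked chromatin, in HEK293 cells (a line from human embryonic kidney), to follow the polymerase when RECQL5 is depleted or overproduced. In 3 libraries the cells had been infected with a lentivirus carrying a control shRNA, RECQL5 shRNA5 or RECQL5 shRNA7. In 2 others, HEK293 T-REx cells held the pcDNA4/TO-RECQL5 plasmid, in which full-length RECQL5 is switched on by doxycycline, and were grown with 0.0 or 1.0 ng/ml of the drug. Each RNAPII library was set against non-specific IgG, and each group was 1 library. There is therefore no replicate check and no test between conditions, and all intervals are 95% intervals for counting error only (Wilson for shares, order statistics for medians). The labels do not say whether the T-REx cells were 1 clone, and the lists hold tags inside called peaks without library totals. The study's methods describe similar read numbers for the libraries compared within the hairpin arm and within the doxycycline arm. The shRNA7 list held 6698771 tags in peaks, against 842310 in the control list and 3778665 upon shRNA5. Of 7 genes typical of HEK293 cells, 4 had a peak at a transcription start site (TSS) upon shRNA7 and 6 had one in some list, while 5 defining genes of blood, liver, epidermis and muscle had none in any list.

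RNAPII begins transcription at the TSS, often pauses shortly downstream, then moves through the gene body and past the end of the gene before it leaves the template. RECQL5 is a DNA helicase of the RecQ family that binds the elongating polymerase and is known to slow it. A ChIP-seq peak marks a stretch where more polymerase was crosslinked than in the background, whether it was moving, paused or terminating, and the antibody used does not separate these states.

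Sequences under some of the strongest members are given as examples and do not stand for the members at large. The 120 bp centred on the summit, the point of highest signal, are given from the plus strand of GRCh37 (hg19) for members with the highest significance score in their class of position, 3 promoter-proximal, 3 intronic and 1 outside genes. Capitals mark CG dinucleotides, the sites of DNA methylation that are dense in most promoters. The first set consists of peaks of which some part came within 500 bp of a protein-coding TSS, called promoter-proximal peaks. Their summits, and so the sequences shown, lay farther away, the first between genes and the other two in introns 5929 and 4831 bp past the TSS.
between PTMS and LAG3, chr12:6880820-6880939: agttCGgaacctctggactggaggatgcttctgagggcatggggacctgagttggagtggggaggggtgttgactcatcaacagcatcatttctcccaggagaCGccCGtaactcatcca
ZNF322 intron, chr6:26653985-26654104: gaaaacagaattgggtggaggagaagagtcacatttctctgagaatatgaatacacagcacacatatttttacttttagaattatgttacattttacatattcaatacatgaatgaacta
NUP37 intron, chr12:102509001-102509120: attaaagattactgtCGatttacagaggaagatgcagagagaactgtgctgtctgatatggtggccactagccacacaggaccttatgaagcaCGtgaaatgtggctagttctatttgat
The second set lay in introns of gene bodies, which run from 500 bp past the TSS to the end of the transcript.
ANKRA2 intron, chr5:72856845-72856964: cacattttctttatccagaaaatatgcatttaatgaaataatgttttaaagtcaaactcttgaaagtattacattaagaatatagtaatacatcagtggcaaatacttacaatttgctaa
TNN intron, chr1:175069833-175069952: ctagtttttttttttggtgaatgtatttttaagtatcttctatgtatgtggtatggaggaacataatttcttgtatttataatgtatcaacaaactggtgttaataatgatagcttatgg
TTK intron, chr6:80742727-80742846: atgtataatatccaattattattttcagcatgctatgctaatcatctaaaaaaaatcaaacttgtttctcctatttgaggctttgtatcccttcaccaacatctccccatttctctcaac
The last sequence lay under the strongest member that touched neither a promoter nor the body of a protein-coding gene.
chromosome 6, nearest gene end TRIM27, chr6:28853834-28853953: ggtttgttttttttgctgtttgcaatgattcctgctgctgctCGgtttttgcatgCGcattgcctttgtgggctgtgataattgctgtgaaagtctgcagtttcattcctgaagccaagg
The 3 intronic windows were 75.8%, 73.3% and 67.5% A or T and held no CG. The member in ANKRA2 lay 160 bp from an shRNA5 peak. The windows of the promoter-proximal peaks held 3, 0 and 2 CG dinucleotides, and the most GC-rich of them, at 44.2% A or T, was the one between PTMS and LAG3. The window outside genes held 2.

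By median AT content the members were close to the genome at large, while their CG content was somewhat above it. Over 2 kb centred on the summit the median AT content was 60.1% for the members, 52.2% for the 21884 other shRNA7 peaks and 59.3% for the peaks found upon shRNA5 only. The median of all 2 kb windows of the genome was 60.2%. The ratio of observed to expected CG dinucleotides had a median of 0.218 in the members, 0.338 in the other shRNA7 peaks and 0.192 in genome windows. Gene-body members had a median AT content of 61.0% (60.8 to 61.1) against 59.1% for the other shRNA7 gene-body peaks. Promoter-proximal members had 50.6% (49.0 to 52.1) against 44.5% for the others, but only 438 of these 742 members had the summit itself at a promoter, against 7935 of 9536 other peaks. Where the summit lay within 500 bp of the TSS of a gene's longest coding transcript, members were not higher. The median there was 41.0% (39.7 to 43.9) in 211 members and 43.9% in 6531 other peaks, a value that the members' interval reached. The CG ratio there was 0.680 and 0.711.

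Short motifs were counted on both strands of the 300 bp around each summit. At least 1 CG was present in 81.3% of members (80.5 to 82.1), 90.6% of other shRNA7 peaks and 82.7% of all 300 bp windows of the genome. The poly(A) signal AATAAA was present in 44.2% of members, 27.2% of other shRNA7 peaks and 44.4% of genome windows, and TATAAA in 30.6%, 18.1% and 29.6%. A run of 5 G (GGGGG) occurred in 24.8% of members, 43.5% of other shRNA7 peaks and 23.5% of genome windows. Over all positions, in all 4 the members stood nearer to the genome than the other shRNA7 peaks did. For CG, TATAAA and GGGGG the genome value still lay just outside the members' counting interval. Peaks found upon shRNA5 only gave 83.9%, 44.2%, 29.9% and 24.4%. Among gene-body peaks alone, CG was present in 79.8% of members and 83.4% of other shRNA7 peaks, and TATAAA in 33.6% and 28.9%. There the others stood nearer to the genome. AATAAA, at 46.9% and 41.9%, lay on either side of it, and for GGGGG, at 21.6% and 26.2%, members stayed nearer. A match describes these letters only and marks no site of action.

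The members were weaker and shorter than the rest of the list. Their median length was 1475 bp against 2467 bp, and their median tag count 59.0 against 135. Median fold enrichment over the local background was 6.50 against 8.38. The significance score, 10 times the negative log10 of the p-value given by the peak caller, had a median of 76.1 in the members and 183 in the other shRNA7 peaks. The false discovery rate (FDR) given by the peak caller had a median of 6.41% and 1.48%. Overlap is counted in bases, so a short peak has less room to meet a peak of another list, and length, tags and score are tied to how members were chosen. No test was made of them. The FDR of the whole shRNA7 list reached 19.6%, while that of the shRNA5 list stopped at 1.69%. Among members 4198 (41.0%) had an FDR of at most 5% and 2898 (28.3%) one above 10%, and 3086 (30.1%) had a score of at least 100.

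Members became rare as peaks became stronger. They were 59.7% of shRNA7 peaks with a score of 50 to 75 and 47.1% of those from 75 to 100. The share was 33.5% from 100 to 150 and 20.7% from 150 to 200, then 13.4% up to 300 and 5.69% up to 500. Of the 3899 peaks with a score of at least 500, 46 were members (1.18%, 0.886 to 1.57).

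**Figure D1:**
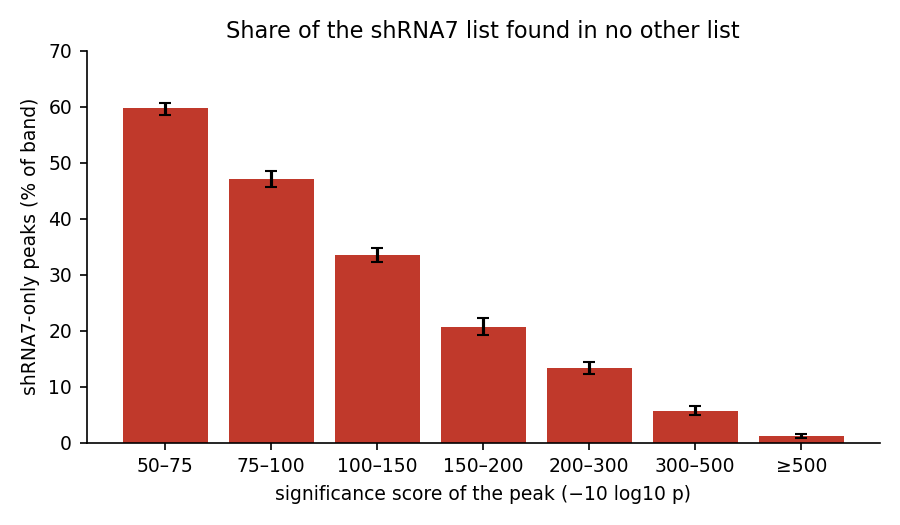
Share of shRNA7 peaks found in no other list (vertical axis, percent of the band) by significance score (horizontal axis). Bars start at 0 and error bars are 95% Wilson intervals. The share falls in each band, from 59.7% to 1.18%.

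Many members lay close to a peak of another list. The median gap to the nearest peak of any other list was 3518 bp (3352 to 3647). For 2225 members (21.7%) the gap was at most 1 kb and for 216 at most 100 bp, whereas 315 (3.08%) were more than 100 kb from any other list. The nearest peak came from the shRNA5 list for 4893 members, from no doxycycline for 3648, from doxycycline for 1577 and from the control for 122. These counts move with the length of each list. Within the shRNA7 list itself, 3854 members (37.6%) had another shRNA7 peak within 1 kb, against 42.4% of the other peaks. For 4631 members (45.2%) the nearest peak of the same list was also a member. At the edge of the rule, the closest members missed another list's peak by 2 bp, at chr21:27374939-27376657 with 63 tags, chr6:111675801-111677277 with 54 tags and chr12:121206830-121209314 with 85 tags. The nearest non-members shared 1, 1 and 3 bp with another list and held 47, 43 and 66 tags.

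Gene bodies held most members. By the position of the whole peak, 7655 members (74.8%, 73.9 to 75.6) were gene-body peaks, 742 (7.25%) were promoter-proximal and 1843 (18.0%) were neither. Of the other shRNA7 peaks 46.2% were gene-body and 43.6% promoter-proximal. In the ungapped genome protein-coding gene bodies took 42.9% of bases and promoter windows 1.38%. Placing the summit instead of the whole peak gave 4.28% promoter-proximal members against 36.3% of the other shRNA7 peaks. Promoters are where lists share peaks most, so the low promoter share of members follows in part from how they were chosen, and the values are a description. In the 75 to 100 band 7.37% of members and 33.2% of other peaks were promoter-proximal, and from 500 upward 8.70% and 57.2%. Peaks seen in 1 list alone were low in promoters elsewhere too, at 4.68% upon shRNA5, 8.93% without doxycycline and 4.22% with it. Summits of members lay in introns in 66.5%, untranslated exons in 8.43%, coding exons in 2.49% and outside protein-coding transcripts in 22.6%. Of the summits in introns 27.4% (26.4 to 28.5) lay in a first intron, against 33.7% for the other shRNA7 peaks and 25.8% of all intron bases.

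The genes that carried members were in large part genes with polymerase at their start in other lists. Of the 7655 gene-body members, 7317 (95.6%, 95.1 to 96.0) lay in a gene with a TSS peak in at least 1 of the other 4 lists, and 243 (3.17%) in genes with no TSS peak in any list. By list, the host gene had a TSS peak in the control for 29.8%, upon shRNA5 for 82.8%, without doxycycline for 94.2% and with it for 85.4%. For the other shRNA7 gene-body peaks 96.6% had such a host, a value that the choice of shared peaks favours. For the 1280 gene-body peaks found upon shRNA5 only, the share against their own other 4 lists was 95.4% (94.1 to 96.4). The share of all protein-coding genes with a TSS peak in another list was not counted. Upon shRNA7, 10467 of 19820 protein-coding genes had a TSS peak, as did the host of 92.6% of gene-body members.

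Summits were then sorted by distance from the start and the end of the longest coding transcript of each gene. Each summit was given 1 zone, and zones at a TSS took precedence over those at a gene end. Within 500 bp of a TSS lay 2.06% of member summits against 29.8% of the other shRNA7 peaks and 0.652% of a grid of points over the genome. From 2 to 6 kb past a TSS lay 1245 members (12.2%, 11.5 to 12.8), against 7.60% of the other shRNA7 peaks, 8.49% of shRNA5-only peaks and 2.49% of the grid. With summits within 500 bp of a TSS left out of both sets, the shares were 12.4% (11.8 to 13.1) of members and 10.8% (10.3 to 11.3) of the other shRNA7 peaks. In 1 kb bins the member share was 1.04% from 1 to 2 kb past the TSS, 2.59% in the next bin and 3.49% from 4 to 5 kb. Of these 1245 members 93.3% lay beside a gene with a TSS peak in another list, and 51.6% had a further shRNA7 peak within 1 kb. Their median gap to another list was 1625 bp, against 3808 bp for members deeper in genes.

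Against the genome, members were also frequent at gene ends. The last 2 kb of genes held 430 members (4.20%), the first 2 kb past the end 721 (7.04%, 6.56 to 7.55) and the stretch from 2 to 10 kb past it 664 (6.48%). The genome grid gave 1.05%, 1.01% and 2.92%. The other shRNA7 peaks gave 3.64%, 6.88% and 5.16%. Summits within 500 bp of a TSS were then left out of both. The first 2 kb past the end then held 7.19% (6.70 to 7.71) of members and 9.80% (9.34 to 10.3) of the other shRNA7 peaks. That order was not kept at low scores, where most members lay (69.9% below a score of 100). Below that score the zone held 5.55% (5.04 to 6.11) of members and 3.90% (3.38 to 4.49) of other peaks. In the first 2 kb past the end, shRNA5-only peaks stood at 4.33% (75 of 1732), and the peaks seen only without or only with doxycycline at 1.69% and 1.48%, in lists whose peaks were shorter. Members in that zone were larger than members in general, with a median of 74.0 tags and a score of 93.8, and 89.3% of them (86.9 to 91.4) lay past a gene with a TSS peak in another list. Their 721 summits belonged to 707 genes.

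**Figure D2:**
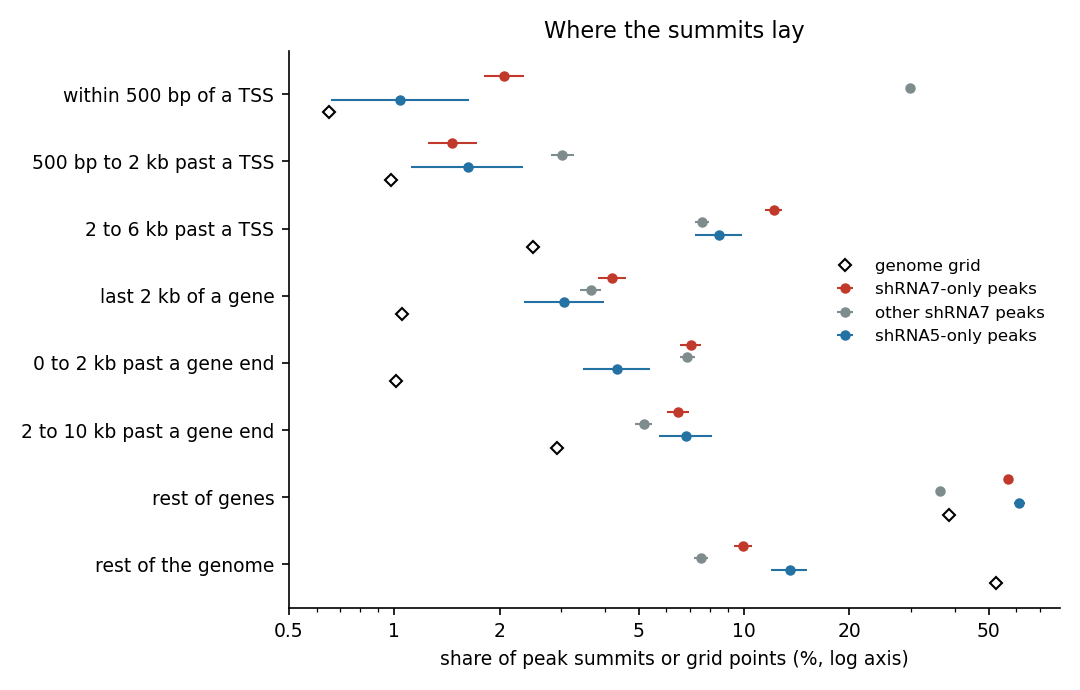
Share of summits (horizontal axis, percent, log scale) in 8 zones set by the nearest protein-coding TSS and gene end, for shRNA7-only, other shRNA7 and shRNA5-only peaks with 95% Wilson intervals, and for a grid of genome points. Members were few within 500 bp of a TSS (2.06%) compared with the other shRNA7 peaks (29.8%), and stood above the grid in each zone but the rest of the genome.

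**Figure D3:**
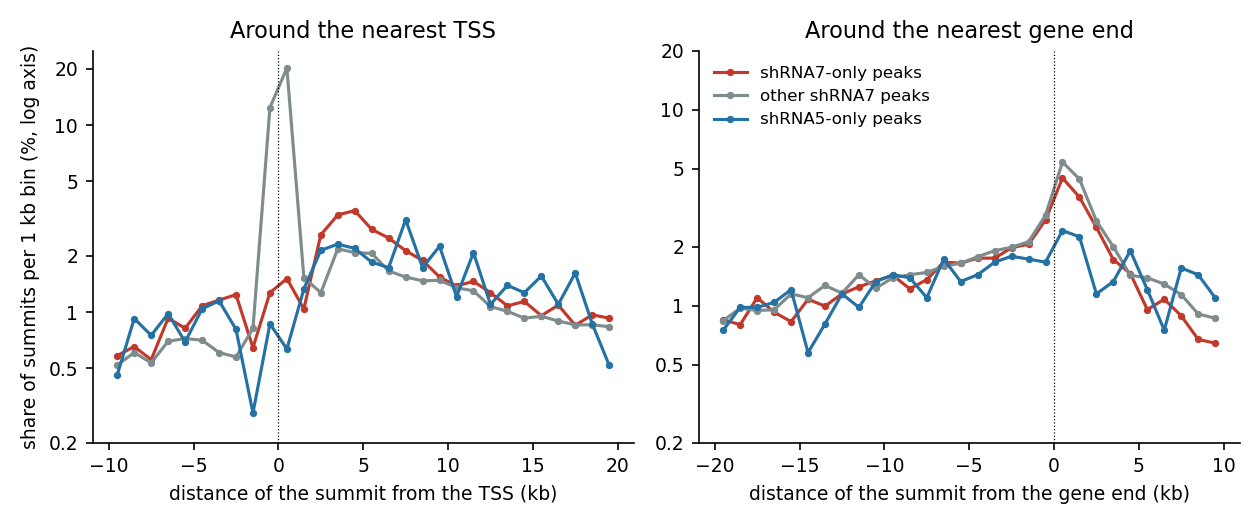
Share of summits per 1 kb bin (vertical axis, percent, log scale) by distance from the nearest TSS (left) and the nearest gene end (right), in kb, for shRNA7-only, other shRNA7 and shRNA5-only peaks. Members lack the peak of the other shRNA7 summits at the TSS, reach 3.49% at 4 to 5 kb past it, and follow the other shRNA7 peaks around the gene end.

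Strong peaks of the shRNA7 list lay more often at gene ends, members and other peaks alike. The share in the first 2 kb past the end was 5.44% for members with a score below 100 and 3.15% for the other shRNA7 peaks below it. Of the 723 members with a score of at least 200, 7.47% lay in the last 2 kb of a gene, 13.4% in the first 2 kb past it and 8.99% from 2 to 10 kb past it, and 17.4% lay 2 to 6 kb past a TSS. The other shRNA7 peaks of that strength gave 4.88%, 9.94%, 6.38% and 7.43%, but 3679 of these 10215 lay within 500 bp of a TSS, against 10 of the 723 members. With those left out, the first 2 kb past the end held 13.6% (11.3 to 16.3) of members and 15.5% (14.7 to 16.4) of other peaks, and the stretch 2 to 6 kb past a TSS held 17.7% and 11.6% (10.9 to 12.4). Summits in the 3 gene-end zones made up 17.7% of all members, 41 of the 100 strongest (41.0%) and 8 of the 12 strongest.

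The 12 strongest members held 296 to 1702 tags with an FDR of 0.450% to 0.840%, and 5 of them lay on chromosome 6. The highest score, 1422, belonged to chr6:26137969-26145188, with 599 tags at 14.1-fold enrichment. Its summit lay 2299 bp past the end of the longest coding transcript of H2AC6, a histone H2A gene. That transcript spanned 14.9 kb, against a median of 0.510 kb over histone genes. The nearest peak of another list was 10148 bp away. The longest member, also the one with the most tags, was chr6:36316643-36331597, which covered 14955 bp with 1702 tags. Its summit lay 1562 bp past the end of ETV7, which encodes an ETS-family transcription factor, and the nearest peak of another list was 58736 bp away.

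Gene ends recurred through the rest of the 12. On chromosome 10 a member of 317 tags ran from 35924124 to 35928268. Its summit lay 346 bp past the end of FZD8, a short gene for a Wnt receptor. It was counted as 2 to 6 kb past a TSS and not in a gene-end zone. On chromosome 19 a member of 362 tags lay over the 3′ untranslated exon of ZNF254, a zinc finger gene, from 24309764 to 24315662. On chromosome 12 a member of 460 tags, from 6877176 to 6882658, ran from the end of PTMS, which encodes parathymosin, to the start of LAG3, which encodes an immune checkpoint receptor. Its summit lay 762 bp past PTMS and its edge was 573 bp from a no doxycycline peak. On chromosome 3 a member of 349 tags from 88189692 to 88195686 covered the end of ZNF654 and touched CGGBP1 on the opposite strand. Its summit lay 6981 bp past the CGGBP1 TSS, and the nearest shRNA5 peak was 2278 bp away. On chromosome 14 a member of 427 tags from 23737449 to 23745603 covered the converging ends of RNF212B and HOMEZ. On chromosome 18 one of 470 tags from 21738700 to 21747115 touched CABYR and OSBPL1A, which also lie on opposite strands.

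The 4 remaining peaks of the 12 lay elsewhere or farther from an end. A member of 857 tags on chromosome 6, from 3706343 to 3720696, had its summit 6586 bp past PXDC1, and was counted in a gene-end zone. One of 451 tags on chromosome 3, from 150174693 to 150184442, had its summit in an untranslated exon of TSC22D2. The last pair, on chromosome 6 and outside protein-coding genes, ran from 28851134 to 28854633 with 367 tags and from 20242373 to 20244868 with 296 tags. The latter overlapped a long noncoding RNA gene, ENSG00000227803. They had fold enrichments of 24.8 and 25.8.

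At the level of genes, 4425 of 19820 protein-coding genes (22.3%) were touched by at least 1 member. Of these 2544 had 1 member, 1881 had 2 or more, 314 had 5 or more and 50 had 10 or more. The touched genes were long, with a median of 50.9 kb against 31.2 kb for genes with any shRNA7 peak and 24.9 kb for all genes, and those with 10 or more members had a median of 194 kb. By length, 6.70% of genes under 10 kb were touched, 18.6% from 10 to 30 kb, 33.4% from 30 to 100 kb, 37.8% from 100 to 300 kb and 27.6% of longer ones.

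The 10 genes with the most members held 15 to 40 each, 202 in all, of which 77 had an FDR of at most 5%. ASCC3, a helicase subunit of the activating signal cointegrator complex on chromosome 6 (100956070 to 101329205, minus strand), held 40. It had 49 peaks upon shRNA7, 7 upon shRNA5, 3 without and 2 with doxycycline, and none in the control. Its members ran from 8.02 to 349 kb past the TSS with 31 to 185 tags each, and 14 of the 40 had an FDR of at most 5%. Peaks covered 30.3% of the gene upon shRNA7, 5.31% upon shRNA5, and 0.559% and 0.359% without and with doxycycline. These 10 genes were named for their number of members, so high coverage in the shRNA7 list follows in part from that choice. Peaks seen only without or only with doxycycline were also shorter, with median lengths of 512 and 502 bp against 1475 bp for members.

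PCNX2 on chromosome 1 held 23 members among 34 shRNA7 peaks, with 44 to 273 tags. It had 9 peaks upon shRNA5, 4 without and 6 with doxycycline. EPHA7, an ephrin receptor gene on chromosome 6, held 22 members among 40 shRNA7 peaks, and peaks covered 50.1% of it upon shRNA7, 28.9% upon shRNA5 and 0.885% in the control. EIF4G3, which encodes a translation initiation factor, differed from these. It also held 22 members, but among 61 shRNA7 peaks, and the gene had 40 peaks upon shRNA5, 31 without and 62 with doxycycline. In EIF4G3 the members lay among peaks that other lists had too.

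**Figure D4:**
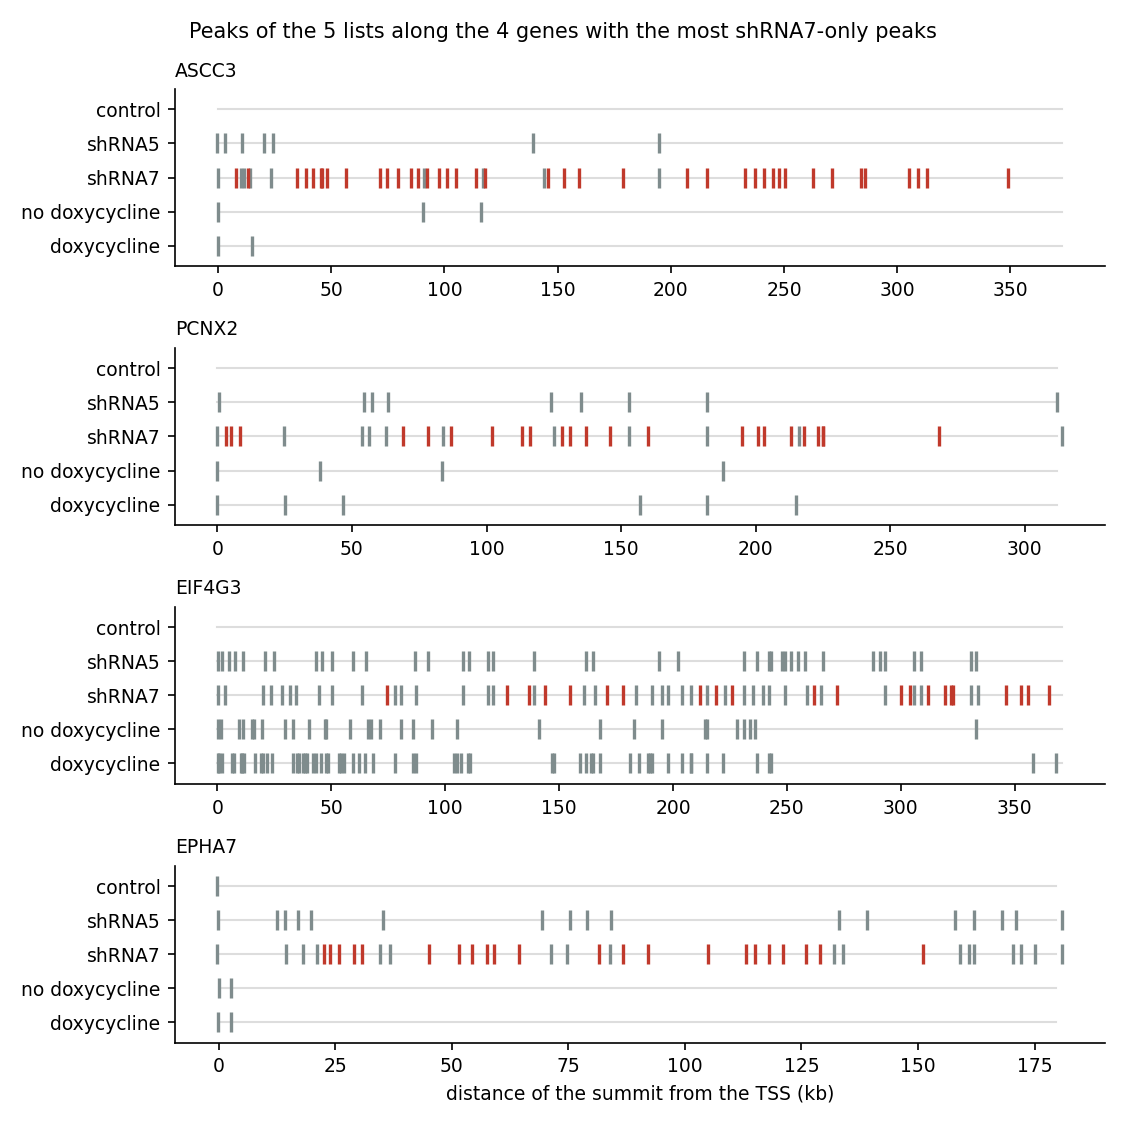
Summits of the 5 lists along ASCC3, PCNX2, EIF4G3 and EPHA7 (horizontal axis, kb past the TSS; 1 row per list). Red ticks are shRNA7-only peaks and grey ticks all other peaks. In ASCC3 40 of 49 shRNA7 peaks are red and the control row is empty, while EIF4G3 carries many grey peaks in 4 lists.

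ACACA, the first enzyme of fatty acid synthesis, had 16 members and 3 peaks upon shRNA5 but 15 without doxycycline. JMJD1C, a histone demethylase family gene, had 16. LAMA3, a laminin chain gene, SIPA1L2 and BRIP1, a helicase of the Fanconi anaemia pathway, had 15 each. Over the 10 genes the share of the gene covered by peaks ran from 13.6% to 59.9% upon shRNA7, from 1.34% to 28.9% upon shRNA5 and from 0 to 2.14% in the control. Their members had median tag counts of 49.5 to 88.0, so single peaks in these genes were about as large as the typical member.

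Genes with members and with no peak in any other list numbered 387, of which 31 had 3 or more members. Overlapping genes were counted separately, so the same members can stand for several genes. Of the 387, 16 were protocadherin genes, a family whose touched genes shared 5 members in all, and PCDHA1 to PCDHA4 held the same 3. MAPK9, a stress-activated kinase gene on chromosome 5, had the most, with 6 members of 41 to 99 tags, 1 of them with an FDR of at most 5%. TMEM170B had 4 members and SLC24A5 had 4, with 2 each at that FDR. These 3 genes were singled out after their values were seen. A TSS peak in the shRNA7 list and in no other was found for 427 of 10467 genes.

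Members were set against gene lists, with the 22.3% of all protein-coding genes as the background. Of 5 RecQ helicase genes, 2 had a member. BLM had 1 with 109 tags and RECQL had 3, the strongest with 38 tags. RECQL5 itself had none, and its only shRNA7 peak, at the TSS, was shared. Of 12 RNAPII subunit genes 2 had a member (16.7%), POLR2B with 3 and POLR2G with 1. The 12 had a median length of 7.84 kb, and 6.70% of all genes under 10 kb were touched. Of 29 elongation and pausing factor genes 12 had one (41.4%), and 28 had some shRNA7 peak. Of all genes of 30 to 100 kb with such a peak, 48.4% had a member. XRN2, the exonuclease of transcription termination, had 9 members with 488 tags, CDK13, an elongation kinase, had 6, and ELL2 and LEO1, elongation factor genes, had 2 each.

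Of 30 R-loop and repair genes 15 had a member, among them ATM with 1 of 162 tags, FANCD2 with 4 and TOP1 with 2. These lists hold genes with a median length of 35.0 and 66.6 kb, above the 24.9 kb of all genes, and longer genes were touched more often. Of the 30 R-loop and repair genes 28 had some shRNA7 peak. Both lists thus stand beside the 48.4% of genes of 30 to 100 kb with such a peak. Of 20 common fragile site genes, with a median length of 1425 kb, 5 had a member. PTPRG had 2, the stronger with 156 tags, and PDE4D had 4, while DMD had 2 and CNTNAP2 and MACROD2 had 1 each. Of the 20 genes 15 had some shRNA7 peak. Of all genes of at least 300 kb 27.6% were touched, and of those with some shRNA7 peak 50.6%. The fragile site genes thus stand beside these shares and not beside the 22.3% of all genes, and no test was made. Members covered at most 0.543% of any of the 5 touched genes.

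Gene families differed widely. Zinc finger ZNF genes had a member in 184 of 512 cases (35.9%), with 334 members in all and a median FDR of 4.82%. ZNF33A had 10 members and ZNF654 had 9, and ZNF654 had no peak in the control, shRNA5 or doxycycline list and 1 without doxycycline. The strongest ZNF654 member was the one that also touched CGGBP1. Protocadherin genes were touched in 38 of 66 cases (57.6%), but they overlap one another and the 38 genes shared 5 members. The 3 over the PCDHA genes held 201 tags in all, and PCDHA1 to PCDHA5 had no peak in another list. Several families hold short genes, and 6.70% of all genes under 10 kb were touched. Histone genes, with a median length of 0.510 kb, were touched in 7 of 79 cases (8.86%). Their members were strong, with a median score of 176. The touched genes with the highest scores, H2AC6, H2BC6 and H2BC18, had long annotated transcripts of 14.9, 12.6 and 29.7 kb. Their strongest members lay 2 to 10 kb past a gene end (H2AC6) or deeper in genes (H2BC6 and H2BC18). The linker histone genes H1-1 and H1-6 each had a member, of 243 and 155 tags, and no peak of another list. HOX genes, with a median length of 3.16 kb, were touched in 6 of 39 cases (15.4%), HOXA13 among them with 83 tags and no peak of another list. Ribosomal protein genes (2 of 80) and olfactory receptor genes (2 of 391) were seldom touched, and 76 of the former but only 2 of the latter had any shRNA7 peak. Their median lengths were 5.25 and 2.08 kb.

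Of the 6 further genes whose transcription the study followed singly, KIFAP3, CTNNBL1, ITPR1, IFT80 and EFNA2 had no member. OPA1, which encodes a mitochondrial fusion protein, had 1 with 44 tags and a score of 65.7.

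Reads were 36 bases long, so each 36-base run of the 300 bp around a summit was looked up in the genome. In 72.7% of members every run occurred once (71.8 to 73.5), against 77.9% of the other shRNA7 peaks. Fewer than 50% of runs were unique in 3.37% of members and 3.34% of the other shRNA7 peaks. Among members that share was 9.77% (8.50 to 11.2) outside genes and promoters, 2.01% in gene bodies and 1.48% at promoters. Of the 100 strongest members 76 had unique runs throughout and 4 had fewer than 50%. The part that read placement had in these peaks was not tested.

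Chromosomes differed in how much of their shRNA7 list was made of members. The share was 45.2% on chromosome 18, 39.6% on chromosome 6 and 39.4% on chromosome 13, and lowest on chromosomes 19 (20.4%) and 17 (23.1%). Chromosomes 19 and 17 had the most other shRNA7 peaks per Mb, 20.8 and 17.8, while their density of members, 5.34 and 5.33 per Mb, was close to the 5.62 of chromosome 6. The shRNA5-only share ran from 4.22% on chromosome 13 to 10.2% on chromosome 4 and did not follow the same order.

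**Figure D5:**
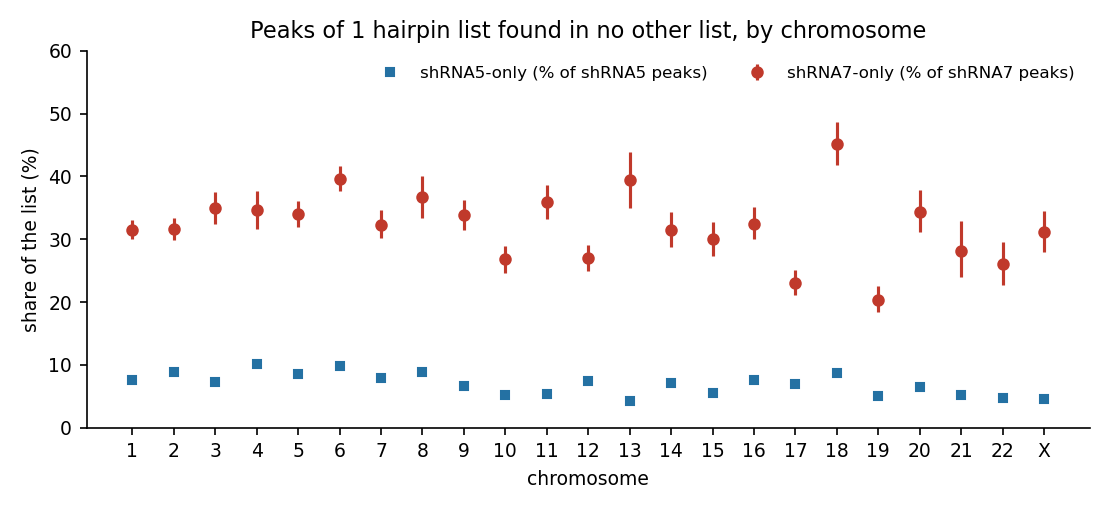
Share of the shRNA7 list seen in no other list (circles, 95% Wilson intervals) and the same share for shRNA5 (squares), in percent, by chromosome. Chromosome 18 is highest for shRNA7 at 45.2% and chromosome 19 lowest at 20.4%.

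Members were also bunched within chromosomes, which was not particular to them. The median gap to the nearest peak of the same list was 1883 bp for members and 1631 bp for the other shRNA7 peaks. Counts per megabase were made for members only. Of 1926 megabases with a member, 285 had 10 or more and together held 3763 members. The fullest was 101 to 102 Mb of chromosome 6, with 39 members, all in ASCC3, against 7 shRNA5 peaks and no control peak. It was followed by 233 Mb of chromosome 1 with 29, of which 23 lay in PCNX2, and by 21 Mb of chromosome 18 with 28, of which 15 lay in LAMA3. The megabase from 21 Mb of chromosome 1 had 26, of which 22 lay in EIF4G3. The one from 58 Mb of chromosome 19 also had 26, spread over zinc finger genes with up to 3 each, in a region where the control list had 18 peaks and shRNA5 had 73.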

How the data were processed

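RNAPII ChIP-seq of HEK293 cells was analysed from the 5 deposited peak lists, with 1 library per group. Per the labels and the study's methods, reads of 36 bases were aligned to hg19 (GRCh37) with Bowtie 0.12.7, and the authors called peaks with MACS 1.4.2 for each RNAPII library against IgG. For the doxycycline lists this was assumed to be the 1 untreated IgG library. The authors deposited for each peak a count of tags that is not normalised, a significance score (10 times the negative log10 of the p-value), a ratio called fold enrichment over the local background, and an FDR in percent. These belong to single peaks and were used mainly within the shRNA7 list. Tag totals and the highest FDR of other lists are given as description.

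The members, gene lists and tests were chosen with earlier results of these data known. Members were placed with GENCODE release 44 lifted to GRCh37, with 1 longest coding transcript per gene for zones and counts. Named were the 12 strongest members, the 10 genes with most, up to 5 genes per list, 7 single genes and the strongest summit sequences of each class. Composition came from the GRCh37 sequence. Python 3.11.15 with pandas 2.3.3, numpy 2.4.6 and scipy 1.17.1 was used, and placement was checked on simulated peaks. The IgG libraries were not analysed here, and 1 gene and 2 summit sequences that this rule names are not reported here.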

Additional observations from a re-analysis of the deposited data

How the results depend on the processing

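Each of 8 values was recomputed under alternatives, 59 values in all, of which 20 stayed within the interval of the value reported (or within 1.5 times for the count of members). The number of members was 3086 at a score of at least 100, 4198 at an FDR of at most 5%, 19405 when sharing required 50% of both peaks and 15392 when a peak had to be absent from the other 2 hairpin lists only. The promoter-proximal share, 7.25%, was 9.17%, 8.98% and 18.2% under the first 3 of these, 8.52% where every 36-base run of the summit window was unique, 9.37% with a TSS window of 1 kb, 20.0% with all annotated transcripts and 4.28% by summit. The gene-body share, 74.8%, was 71.4%, 72.3% and 68.2%, then 73.3% without members within 1 kb of another list, 76.6% with unique runs, 72.9% with the 1 kb window, 70.5% with all transcripts and 73.9% by summit. Median AT content was 59.9% at a score of at least 100, 58.4% with the 50% rule, 60.3% with unique runs, 60.4% over the whole peak and 61.5% over 200 bp. Hosts with a TSS peak in another list were 96.3% with the 50% rule and 94.9% without members within 1 kb. Touched genes were 9.81% (score), 12.5% (FDR), 40.8% (50% rule), 18.6% (1 kb) and 18.7% (unique runs). Summits 2 to 6 kb past a TSS were 13.8%, 13.7%, 11.1%, 10.7% and 13.0% in that order, and summits 0 to 2 kb past a gene end were 10.8% (score), 9.55% (FDR) and 7.84% (1 kb). Under each setting for which its share was recomputed, gene-body peaks stayed the most frequent class. The settings for both summit zones, among them leaving out summits within 500 bp of a TSS, for unique runs and for placing by summit were chosen after seeing the data.

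No paired analysis was possible because no group had a second library, and for the same reason none was left out in turn. The lists give no tags of other libraries at member positions, so how far short of a peak those libraries fell there is unknown. Of the 5 lists shRNA7 had the highest FDR, and 41.0% of members had one of at most 5%.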
